A study of Mus musculus with 12 samples.

Results

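The genes described here encode the protein skeleton under the red cell membrane and band 3, the anion exchanger that anchors it: Sptb (β-spectrin), Ank1 (ankyrin 1), Epb41 (protein 4.1), Epb42 (protein 4.2), Dmtn (dematin), Add1 and Add2 (α- and β-adducin), Slc4a1 (band 3) and Tmod1 (tropomodulin 1). They were measured on Affymetrix mouse arrays in MEL cells, a mouse erythroleukemia line, with 3 arrays of G9a knockdown cells and 3 of wild type cells. Per the labels, 2% DMSO was given for 4 days to induce erythroid maturation, and 5 µg/ml doxycycline induced the knockdown; this wording is shared by both groups, and whether wild type cells received doxycycline is not stated. The labels name neither the knockdown construct nor the number of clones, and do not say that replicates are separate cultures. The p-values of the main fit measure how much the knockdown minus wild type difference varied between replicate numbers. Those of a fit without replicate numbers measure the spread between arrays of a group. Either spread may be technical.

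Members were all probe sets annotated to exactly 1 of the 9 symbols. These were 23 of the 45101 probe sets of the array, and they covered 8 genes. Epb41 was the symbol of no probe set in the annotation used, so protein 4.1 was not analysed here. Of the 23 probe sets, 20 exceeded a log2 level of 4 in at least 3 of the 6 arrays and were tested, among 17028 such probe sets of the array. The 3 dimmer ones belonged to Ank1, Add2 and Slc4a1. Levels are GCRMA log2 values, and differences are knockdown minus wild type with the replicate number as a block. Probe sets bind their targets with unequal strength, so levels are compared between arrays and never between genes.

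Under the membrane of a red cell, spectrin tetramers form a net whose nodes are short actin filaments. Adducin, dematin, tropomodulin and protein 4.1 sit at these nodes, and ankyrin with protein 4.2 ties spectrin to band 3. In humans, defects of ankyrin, β-spectrin, band 3 or protein 4.2 cause hereditary spherocytosis. Erythroid precursors make more of these proteins as they mature.

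RefSeq promoter windows (GRCm38.p6) matched 5 of the 8 measured genes: Sptb, Epb42, Add1, Add2 and Tmod1. The 250 bases before the start site are shown for the adducin gene with the largest difference among the members, for the tropomodulin gene, and for a gene of each of the other roles, the spectrin net and the band 3 attachment. Capitals mark matches on either strand to a GATA motif (AGATAA, with T also allowed first and G also allowed last), the type bound by GATA1, or to CCNCNCCC, the CACCC type bound by Krüppel-like factors, which also takes in GC boxes; overlapping matches run together.
Add2, chr6:86028431-86028680, + strand: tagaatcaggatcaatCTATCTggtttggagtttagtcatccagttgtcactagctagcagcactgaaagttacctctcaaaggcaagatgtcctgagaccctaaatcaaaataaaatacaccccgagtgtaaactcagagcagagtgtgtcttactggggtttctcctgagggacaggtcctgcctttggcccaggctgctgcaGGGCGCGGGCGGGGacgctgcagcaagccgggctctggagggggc
Tmod1, chr4:46038972-46039221, + strand: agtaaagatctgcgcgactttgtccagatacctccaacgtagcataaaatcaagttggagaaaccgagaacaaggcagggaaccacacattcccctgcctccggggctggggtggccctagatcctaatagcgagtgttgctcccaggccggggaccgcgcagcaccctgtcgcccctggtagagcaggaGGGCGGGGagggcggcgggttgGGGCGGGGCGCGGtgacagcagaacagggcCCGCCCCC
Sptb, chr12:76710548-76710797, − strand: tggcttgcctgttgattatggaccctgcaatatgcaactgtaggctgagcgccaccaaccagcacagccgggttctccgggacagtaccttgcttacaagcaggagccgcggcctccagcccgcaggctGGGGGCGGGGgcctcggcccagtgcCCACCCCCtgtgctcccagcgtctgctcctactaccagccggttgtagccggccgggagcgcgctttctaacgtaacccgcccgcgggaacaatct
Epb42, chr2:121036878-121037127, − strand: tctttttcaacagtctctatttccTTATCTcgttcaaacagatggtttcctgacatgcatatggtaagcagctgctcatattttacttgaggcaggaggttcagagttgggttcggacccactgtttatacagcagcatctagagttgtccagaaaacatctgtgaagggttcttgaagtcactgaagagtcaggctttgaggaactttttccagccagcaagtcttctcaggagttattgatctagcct
The GATA letters began 234 bases before the start of Add2 and 226 bases before that of Epb42, and were absent from the windows of Tmod1 and Sptb. CCNCNCCC occurred 4 times in the Tmod1 window, 3 times in that of Sptb, 2 times in that of Add2 and 0 times in that of Epb42. Among 32851 RefSeq windows of this length, 26.5% held a GATA match and 45.9% a CCNCNCCC match. These matches describe letters in a window and were not tied to any measurement on the arrays.

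The label of the knockdown was checked at Ehmt2, which encodes G9a. Probe set 1460692_at read 6.67, 7.33 and 7.58 in knockdown replicates 1 to 3, against 9.92, 10.03 and 10.23 in wild type replicates 1 to 3. All knockdown arrays were below all wild type arrays there and at 1426888_at. The differences were −2.87 (95% interval −3.24 to −2.49, limma adjusted p = 0.0316) and −2.86 (−3.19 to −2.54, adjusted p = 0.0278). Without the block, 1460692_at had a limma adjusted p of 0.0719, and 0.00587% of tested probe sets were called. Leaving out replicate 1 or 2 ended both calls (limma adjusted p of 0.277 and 0.142), and leaving out replicate 3 ended that of 1460692_at (0.0518), with differences of −2.98 to −2.68. Both calls also ended without the filter on dim probe sets (limma adjusted p = 0.190 at each) and in MAS5 (0.295 at 1460692_at and 0.419 at 1426888_at), where the differences were −2.46 and −2.71. The erythroid label was checked on 12 marker genes, of which 9 had a probe set with 1 gene symbol and 8 were tested. At the brightest probe set of each, 5 of these 8 averaged higher in the knockdown and 3 lower. The higher ones were Slc25a37 at 9.79 and 9.24 (knockdown and wild type means), Klf1 at 12.89 and 12.49, Alas2 at 13.40 and 13.20, Epor at 12.59 and 12.51 and Car2 at 12.79 and 12.76. The lower ones were Nfe2 at 10.94 and 11.24, Tfrc at 14.33 and 14.56 and Tal1 at 11.54 and 11.62. The ninth gene, Hba-a1, had a probe set at 2.43 and 2.46, which was not tested. Probe sets with more than 1 gene symbol were not used, so this value is not read as the level of α-globin. Of the myeloid markers 2 of 10 with a probe set were tested, of the megakaryocyte markers 1 of 5, and of the lymphoid, mast cell and fibroblast or endothelial markers 0 of 12. Of the tested myeloid genes, Prtn3 averaged 5.72 in the knockdown and 4.52 in wild type, and Csf1r 6.45 and 6.50 at its brightest probe set and 6.65 and 6.21 at the other tested one. The megakaryocyte gene Itga2b averaged 11.15 in the knockdown and 11.86 in wild type; whether any of these has a part in the differences below was not tested.

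Of the 8 genes, 7 had a positive difference at their brightest tested probe set, with a median of 0.26, and band 3 was the exception. The 7 include Ank1 and Tmod1, for which no direction is given below. The sign of band 3 rested on replicate 2, without which its difference at that probe set was 0.30. Across all 9025 genes tested the share with a positive difference was 48.9% and the median was −0.0063. No member probe set was called in either direction by limma at an adjusted p of 0.05 (0 of 20), where 0.0117% of all tested probe sets were called, both of them Ehmt2. The adjusted p-values of the members ran between 0.169 and 0.874. At an unadjusted limma p under 0.05, 5 of 20 member probe sets were higher in the knockdown and 0 lower, against 6.44% higher and 7.24% lower among all tested probe sets. These 5 came from Dmtn, Add2 and Tmod1, and probe sets of 1 gene share a target, so they are not separate observations. Without the block, 2 of 20 were at such a p, both higher and both of Add2, against 5.87% of all tested probe sets in either direction. In whole-culture RNA, fewer cells of a type and less RNA per cell cannot be told apart.

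In the spectrin net and its attachment to band 3, the 95% interval of the difference included 0 at every tested probe set. Sptb, β-spectrin, read 10.99, 11.18 and 10.76 at 1455226_at in knockdown replicates 1 to 3, against 10.63, 11.17 and 10.36 in wild type replicates 1 to 3. The groups overlap, wild type 2 lying level with the highest knockdown array. The difference was 0.25 (95% interval −0.046 to 0.55, limma adjusted p = 0.423), smaller than the wild type range of 0.81. At the dimmer probe set 1450556_at Sptb averaged 8.11 ± 0.11 in the knockdown and 7.97 ± 0.56 in wild type (SD, n = 3 each). That difference of 0.13 rested on replicate 3, where the knockdown array was 0.89 higher, while replicates 1 and 2 differed by −0.35 and −0.14. Without replicate 3 it was −0.24.

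Ank1, the ankyrin that joins spectrin to band 3, read 9.64, 9.94 and 9.40 at its brightest probe set 1419421_at in knockdown replicates 1 to 3. Wild type replicates 1 to 3 read 9.50, 9.84 and 9.22. Each knockdown array was above the wild type array of its number, by 0.14, 0.11 and 0.18, although the groups overlap. The interval of the mean difference of 0.14 was −0.091 to 0.38 (limma adjusted p = 0.537). The other tested probe sets did not share this pattern. At 1425677_a_at the differences by replicate were −0.53, −0.32 and 0.43, with a mean of −0.14 (−0.65 to 0.37). At the dim 1452512_a_at they were −0.74, −0.15 and 1.46, with wild type 3 at 3.94, below the filter. Which ankyrin transcripts each probe set reads is not given in the files, and no direction is given for Ank1. The probe set 1443291_at was between 2.29 and 2.92 in all 6 arrays and was not tested.

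Epb42, the protein 4.2 that stabilises the ankyrin and band 3 link, read 8.52, 8.46 and 8.84 at 1417337_at in the knockdown, against 8.13, 8.57 and 8.49 in wild type. Wild type 2 was above 2 of the knockdown arrays. The difference was 0.21 (−0.13 to 0.54, limma adjusted p = 0.537), and leaving out a replicate number gave 0.12 (without replicate 1) to 0.36 (without replicate 2). At 1417338_at the values were 7.56, 7.61 and 7.79 in the knockdown, against 7.19, 7.58 and 7.06 in wild type, and each knockdown array was above the wild type array of its number. That difference was 0.38 (−0.0096 to 0.77, adjusted p = 0.373), and 0.20 without replicate 3.

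Slc4a1, band 3, had the opposite sign, and knockdown 2 carried most of it. At 1416464_at it read 7.96, 6.93 and 8.41 in knockdown replicates 1 to 3, against 7.88, 8.02 and 7.88 in wild type replicates 1 to 3. The wild type arrays lay within 0.15 of each other, while knockdown 2 was the lowest and knockdown 3 the highest of the 6. The difference of −0.16 (−0.94 to 0.61, limma adjusted p = 0.853) became 0.30 without replicate 2 and −0.51 without replicate 3. Probe set 1434502_x_at read 7.21, 6.44 and 7.29 in the knockdown, against 7.23, 7.57 and 7.49 in wild type. Knockdown 2 was again the lowest array, and the difference of −0.45 (−1.03 to 0.13, adjusted p = 0.453) was −0.11 without replicate 2. A probe set with the suffix _x_at can also bind other transcripts. In MAS5, knockdown 2 was the lowest of the 6 arrays at both probe sets, at 7.92 and 7.53. The third Slc4a1 probe set, 1431743_a_at, stayed between 2.24 and 2.33 in GCRMA and was not tested.

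At the actin nodes, the lowest unadjusted p of the members was that of Dmtn, the dematin gene, whose protein bundles actin. At 1460223_a_at it read 10.67, 10.01 and 9.57 in knockdown replicates 1 to 3, against 9.93, 9.22 and 9.06 in wild type replicates 1 to 3. The groups overlap because wild type 1 was above knockdown 3. Each knockdown array was still above its wild type counterpart, by 0.74, 0.80 and 0.51. The difference was 0.68 (95% interval 0.41 to 0.95), a 1.60-fold higher level, with an unadjusted limma p of 0.0011 and an adjusted p of 0.169. Without the block its standard error was 0.34 in place of 0.11, and the limma adjusted p was 0.852. Leaving out a replicate number gave differences of 0.62 to 0.77. The dimmer Dmtn probe sets were also positive, with 0.39 at 1438189_s_at (0.038 to 0.75, adjusted p = 0.338) and 0.13 at 1445439_at (−0.17 to 0.42). Without replicate 1 the first was 0.22, and without replicate 3 the second was 0.012. Both averaged between 4.70 and 5.09 in each group, close to the filter, and an _s_at probe set can read more than 1 gene.

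Add2, the β-adducin subunit restricted largely to blood and brain, had the largest difference among the members. At 1431076_at it read 8.93, 9.20 and 9.63 in knockdown replicates 1 to 3, against 8.18, 8.94 and 7.93 in wild type replicates 1 to 3. Knockdown 1 lay just below wild type 2, and the other knockdown arrays were above all wild type arrays. The difference was 0.90 (0.21 to 1.59), or 1.86-fold (1.15 to 3.00), with an unadjusted limma p of 0.020 and an adjusted p of 0.294. The replicates contributed unequally, with differences of 0.74, 0.26 and 1.69, and the mean was 0.50 without replicate 3 and 1.22 without replicate 2. At 1435287_at the difference was 0.68 (−0.019 to 1.38), at 1421975_a_at 0.35 (0.055 to 0.65) and at 1451914_a_at 0.19 (−0.13 to 0.52). Replicate 3 gave the highest of the 3 differences at each of these too, and without it they were 0.30, 0.23 and 0.061. The fifth probe set, 1450442_at, was between 3.64 and 4.24 and was not tested.

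Add1, the α-adducin that pairs with β-adducin and is made in most tissues, differed less. At 1450054_at it read 11.53, 11.86 and 11.52 in the knockdown, against 11.32, 11.31 and 11.45 in wild type. This was the only one of the 20 tested probe sets whose groups did not overlap in GCRMA, which 5.04% of all tested probe sets did with the knockdown higher; the knockdown was wholly lower at 0 of 20, against 7.33%. Its difference was 0.28 (−0.041 to 0.60, limma adjusted p = 0.412), and 0.14 without replicate 2. The other Add1 probe sets differed by 0.25 at 1420954_a_at and 0.14 at 1420953_at, with intervals that included 0, and by 0.16 and 0.076 without replicate 2.

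Tmod1, tropomodulin 1, caps the slow-growing ends of the actin filaments and had 1 probe set. It read 10.74, 11.10 and 10.84 in knockdown replicates 1 to 3, against 10.36, 10.94 and 10.60 in wild type replicates 1 to 3. Each knockdown array was above the wild type array of its number, while wild type 2 was above knockdown replicates 1 and 3. The difference was 0.26 (0.0096 to 0.51, limma adjusted p = 0.358). MAS5 gave −0.0080 (−0.63 to 0.62) for the same arrays, with knockdown 2 as the lowest array in MAS5 and the highest in GCRMA, so no direction is given for Tmod1.

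**Figure D1:**
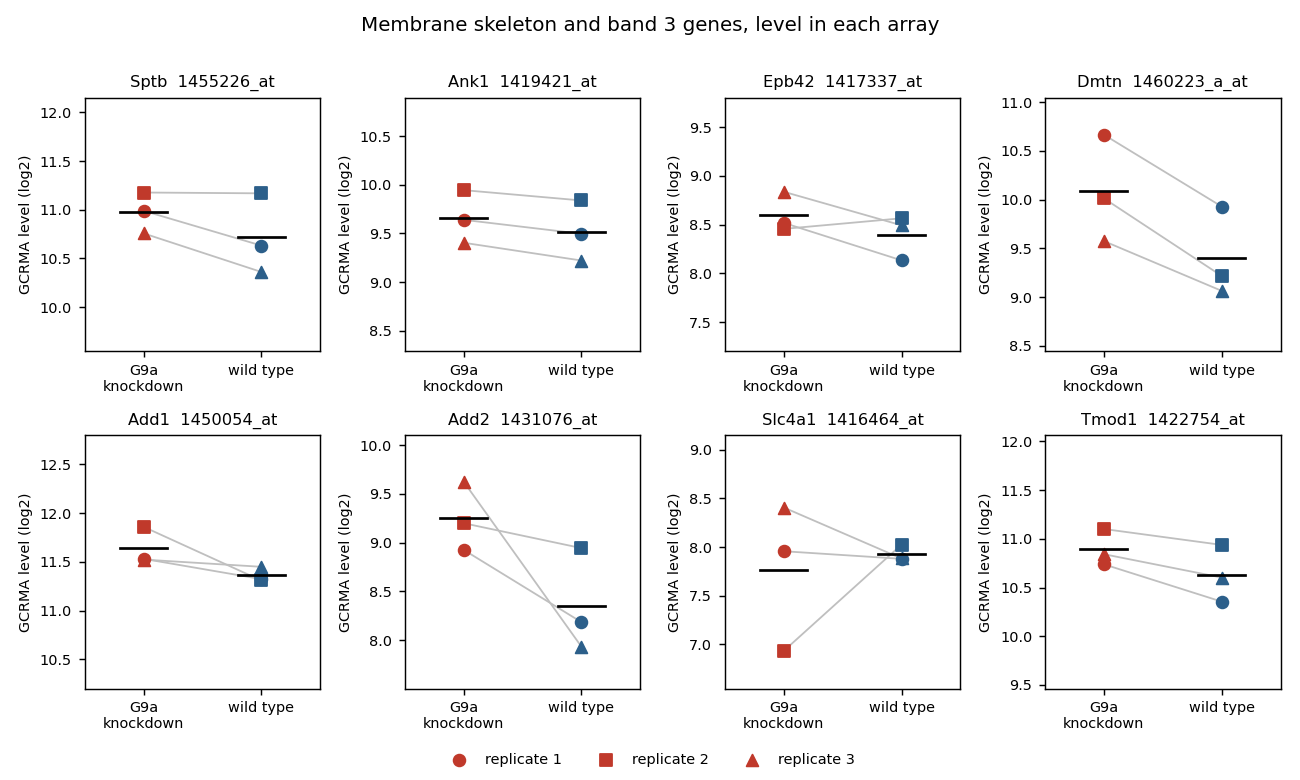
GCRMA log2 level of each measured gene at its brightest tested probe set, with the 3 G9a knockdown arrays on the left and the 3 wild type arrays on the right of each panel. Marker shapes and grey lines join arrays of 1 replicate number, black bars are group means, and all panels span the same log2 range; Dmtn is higher in the knockdown along every line, and in Slc4a1 knockdown 2 lies alone at 6.93.

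**Figure D2:**
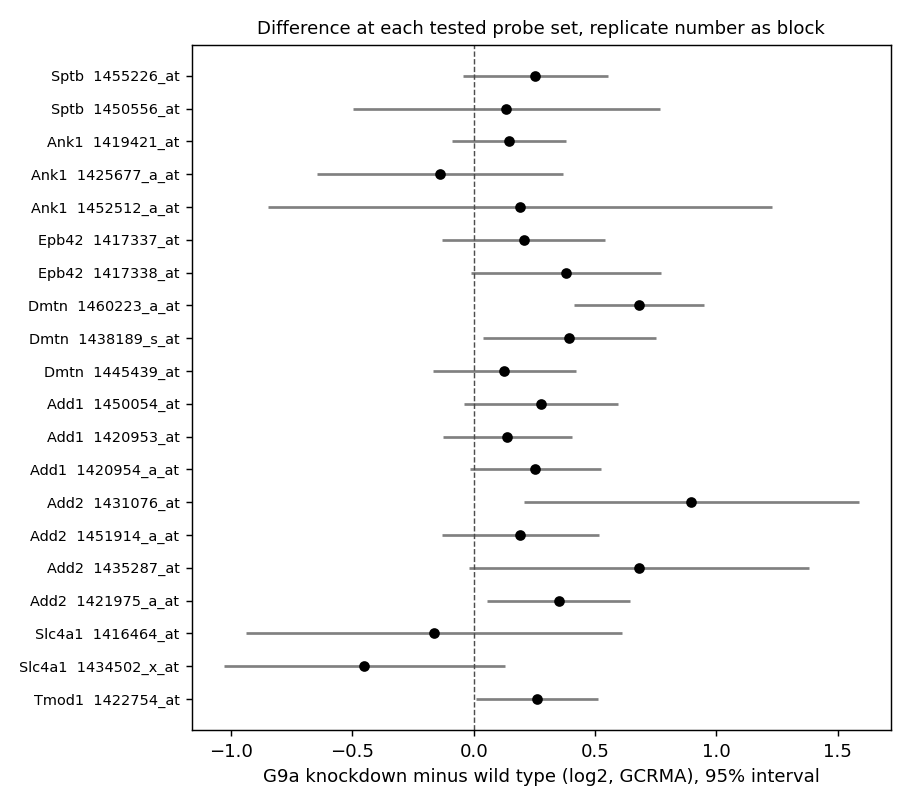
Knockdown minus wild type (log2, GCRMA) with its 95% limma interval at the 20 tested probe sets, replicate number as block. Of the 20 intervals 15 include 0, and the 5 that do not belong to Dmtn, Add2 and Tmod1.

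The members varied between replicate numbers as well as between groups. Deviations from the mean of the 6 arrays had a median over the 8 genes of 0.079, 0.33 and 0.052 in knockdown replicates 1 to 3, against −0.20, 0.16 and −0.26 in wild type replicates 1 to 3. Over all tested genes these medians were between −0.018 and 0.059 in every array. Wild type 2 was the highest wild type array at 13 of the 20 member probe sets, against 25.2% of all tested probe sets. Wild type 3 was the lowest at 13 of 20, against 35.5%. At the brightest probe set of each gene, wild type 2 was the highest in 6 of 8 and wild type 3 the lowest in 4 of 8. The 25.2% and 35.5% are over probe sets, and probe sets of 1 gene are not separate observations. The 8 tested erythroid markers had median deviations of 0.030, 0.088 and −0.046 in the knockdown and 0.026, 0.066 and −0.12 in wild type; their part in the members' differences was not tested.

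Replicate numbers also differed in the size of the difference. The median difference over the 8 genes was 0.37 in replicate 1, 0.13 in replicate 2 and 0.37 in replicate 3. In 6 of the 8 genes, at the brightest probe set, all 3 knockdown arrays were above the wild type array of their number, as in 18.7% of all genes tested. Over probe sets this held for 10 of 20, against 17.3% of all, and the reverse held for 1, Slc4a1 at 1434502_x_at, against 20.6%. Probe sets of 1 gene are not separate observations. Among the 6 genes, the replicate 2 difference of Sptb was only 0.0083. That of Tmod1 was 0.16 in GCRMA and −0.68 in MAS5. The difference was smaller than the range of the 3 wild type arrays at 13 of 20 member probe sets, against 84.1% of all tested.

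Sptb and Ank1 had the most similar pattern among the 8 genes (Pearson r = 0.96 over the 6 arrays, as a description), with knockdown 2 and wild type 2 high and replicate 3 low in both groups. Dmtn instead had its highest value of each group in replicate 1, at deviations of 0.92 in the knockdown and 0.19 in wild type. Add2 had its extremes in replicate 3, at 0.82 in the knockdown and −0.87 in wild type. By likeness to Slc4a1 at 1416464_at (Pearson r over the 6 arrays, given as a description among 9024 genes), the 5 closest genes were Dennd6a (0.998), Zdhhc5 (0.985), Tardbp (0.982), Gimap9 (0.980) and Fuca2 (0.966). Each of these 5 was lowest in knockdown 2 and highest in knockdown 3, as Slc4a1 was, and the arrays are shared by all genes compared. They were chosen for this likeness, so the shared extremes are not a separate observation. Tardbp, which encodes an RNA-binding protein, read 11.83, 11.30 and 11.98 in the knockdown, against 11.72, 11.90 and 11.81 in wild type. None of the other members was near Slc4a1 by this measure, Epb42 being the closest at rank 1565.

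**Figure D3:**
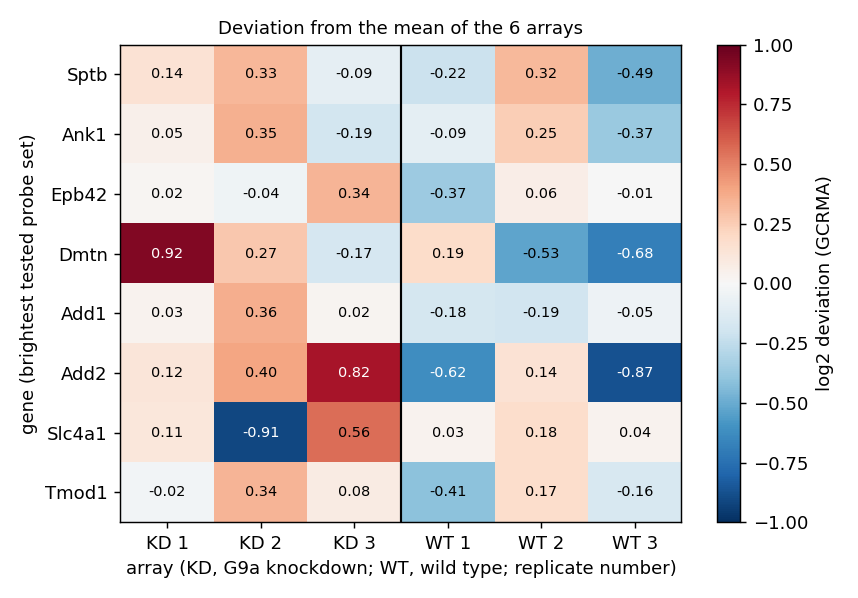
Deviation of each gene (rows, brightest tested probe set) from its mean over the 6 arrays, in GCRMA log2, with knockdown arrays left of the line and wild type arrays right of it. Wild type 3 is at −0.49 in Sptb and −0.87 in Add2, and knockdown 2 is at −0.91 in Slc4a1 while it is at 0.33 or more in Sptb, Ank1, Add1, Add2 and Tmod1.

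The MAS5 columns summarise the same arrays and served as a check, not as further replicates. Of the 20 tested member probe sets 19 had the same sign in both summaries, Tmod1 being the exception. No member was called by limma in MAS5 (0 of 20, lowest adjusted p = 0.419, against 0.0% of all tested). At an unadjusted limma p under 0.05, 6 of 20 were higher in the knockdown and 0 lower. Among all tested probe sets 5.5% were higher at such a p, a share that leaves out those that were lower. The groups did not overlap in MAS5 at 7 of 20 with the knockdown higher, against 6.64% of all. Both the 6 and the 7 came from Epb42, Dmtn, Add1 and Add2 only. Probe sets of 1 gene share a target, so they are not separate observations. Add2 at 1431076_at read 10.25, 10.48 and 10.78 in the knockdown, against 9.64, 10.18 and 9.51 in wild type, a MAS5 difference of 0.73 (0.17 to 1.28). All knockdown arrays were above all wild type arrays there. Dmtn at 1460223_a_at differed by 0.60 (0.28 to 0.92) in MAS5. Its dim probe set 1438189_s_at differed by 1.13 in MAS5, which is 0.39 in GCRMA.

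**Figure D4:**
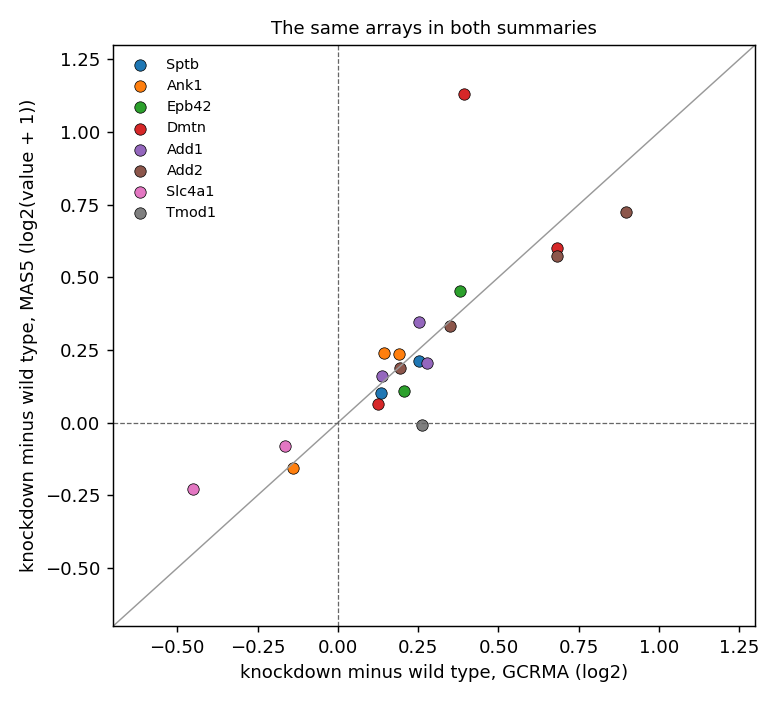
Knockdown minus wild type in MAS5 (log2(value + 1), vertical) against GCRMA (log2, horizontal) for the 20 tested probe sets, coloured by gene, with the line of equality. Points lie near the line apart from a dim Dmtn probe set at 0.39 in GCRMA and 1.13 in MAS5, and Tmod1 lies at 0.26 and −0.0080.

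A list of 26 genes covered proteins that meet the skeleton at band 3 or at the actin nodes, and other red cell surface or transport proteins. Of the 26 genes, 22 were tested. The difference was above 0 for 13 and below 0 for 9, and the median was 0.028, against 48.9% above 0 and a median of −0.0063 over all genes tested. In limma 0 of 22 were called in either direction, against 0.0117% of all tested probe sets. At an unadjusted p under 0.05, 4 of 22 were higher and 1 lower, against 6.44% higher and 7.24% lower among all tested probe sets. Those shares are over probe sets, while the list counts each gene at its brightest one. The 4 with the lowest p were Kel, Ermap, Icam4 and Rhd, which encode blood group or surface proteins. Their differences were 0.73 (Kel), 0.74 (Ermap), 0.51 (Icam4) and 0.54 (Rhd), with limma adjusted p-values of 0.169 to 0.209. In Ermap the knockdown arrays read 12.91, 12.91 and 12.41, against 12.15, 12.00 and 11.85 in wild type, with no overlap. Mpp1, the membrane palmitoylated protein that binds protein 4.1 and glycophorin C in human red cells, was the one below 0 at that p, at −0.33 (−0.57 to −0.085). Gypc, glycophorin C, was at −0.21 (−0.45 to 0.028).

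Relatives of the members that serve the membrane skeleton or anion exchange in other cells were described from a list of 25 genes, of which 9 were tested. The difference was above 0 for 3 and below 0 for 6, and the median was −0.060, beside the same 48.9% and −0.0063 over all genes. In limma, 0 of 9 were called, against 0.0117% of all tested probe sets. At an unadjusted p under 0.05, 2 of 9 were higher and 3 lower, against 6.44% higher and 7.24% lower among all tested probe sets. Here too the shares are over probe sets and the list over genes at their brightest probe set. Sptbn1, the β-spectrin of non-erythroid cells, read 9.39, 9.44 and 9.37 at its brightest probe set in the knockdown, against 9.84, 9.82 and 9.70 in wild type. All knockdown arrays were below all wild type arrays, and the difference was −0.39 (−0.63 to −0.15, limma adjusted p = 0.233). The difference was −0.26 at 1419256_at and −0.59 at 1444089_at, the dimmer Sptbn1 probe sets. At 1444089_at all knockdown arrays were below the filter of log2 4 and all wild type arrays above it. That probe set was thus tested only because of its wild type arrays, and its lower knockdown level is not read as a further observation. Add3, γ-adducin, read 9.68, 9.16 and 9.20 in the knockdown, against 9.34, 8.81 and 8.78 in wild type. Each knockdown array was above its wild type counterpart by 0.34 to 0.43, and the difference was 0.38 (0.14 to 0.61, adjusted p = 0.238), with 0.35 and 0.13 at its other probe sets. Vill and Svil, villin family genes of actin-binding proteins, differed by 0.30 and −0.29. All 3 adducin genes thus had a positive difference at every tested probe set in GCRMA, none of them called, and in MAS5 the dimmest Add3 probe set was at −0.047.

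**Figure D5:**
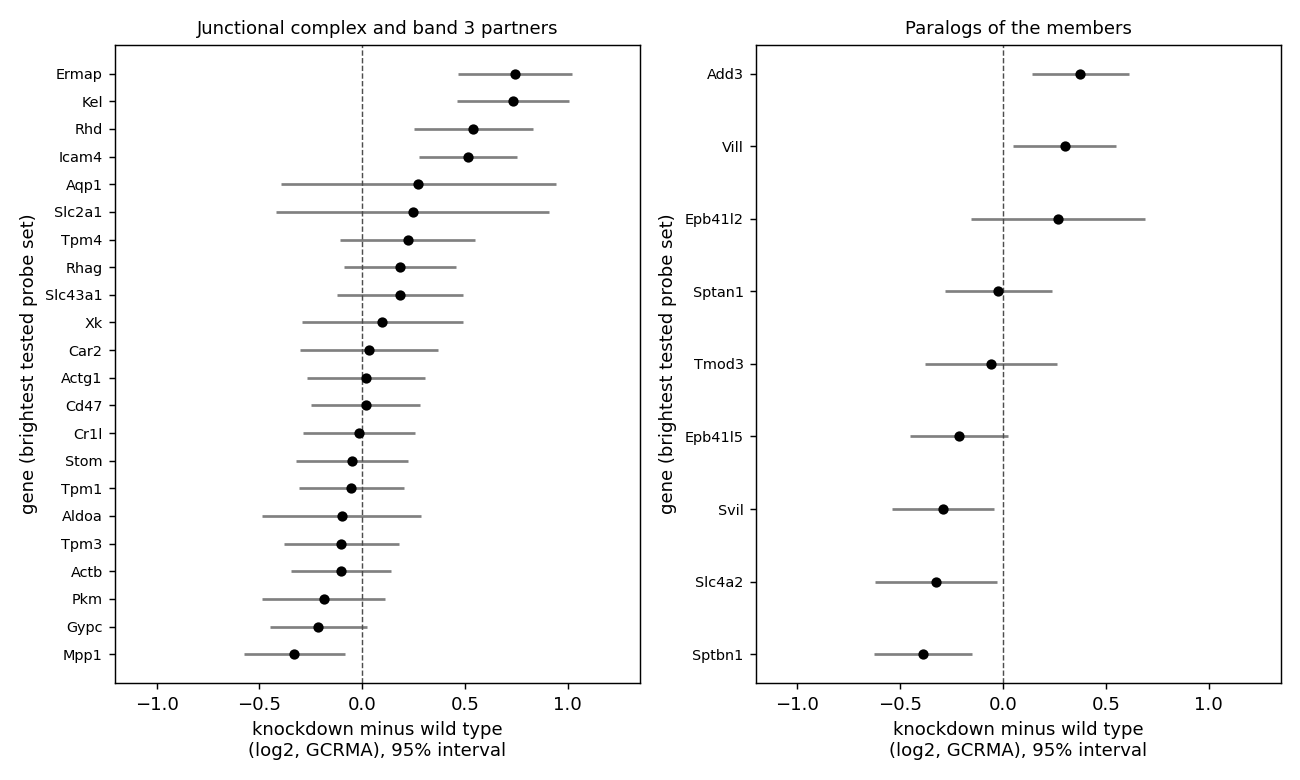
Knockdown minus wild type (log2, GCRMA) with 95% limma intervals, 1 probe set a gene. The left side shows the 22 tested genes of the list of partners and other red cell surface or transport proteins, and the right side 9 relatives. Kel, Ermap, Icam4 and Rhd lie at 0.51 to 0.74, while Mpp1 lies at −0.33 and Sptbn1 at −0.39.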

How the data were processed

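Values came from the authors' deposited series matrix, whose 12 columns are 6 arrays summarised by MAS5 and by GCRMA, per the labels. The deposited MAS5 columns are intensity on a linear scale and were used as log2(value + 1); the deposited GCRMA columns are log2 values from 0.69 to 16.49. The sources used here give no software version or setting. Gene names came from the platform annotation; the IDs of all 8 measured members had the same symbol in RefSeq (GRCm38.p6). After removal of 64 control probe sets, those above log2 4 in at least 3 of 6 arrays (17028, covering 9025 genes) were fitted with limma 3.58.1 in R 4.3.3 (lmFit, eBayes; group and replicate number as terms; Benjamini-Hochberg over all tested, threshold 0.05). The fit was tested on simulated data with planted differences larger than that of any member. That test therefore does not bear on differences of the size seen in the members. A gene was represented by its brightest tested probe set. The number of arrays limits the precision.

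As a check of pairing, same-numbered arrays had correlations of 0.72, 0.57 and 0.37 in their deviations from group means, and other pairs of arrays −0.59 to 0.17; what a replicate number marks is not in the labels. Members and lists were chosen with earlier results of these data known. The text names every member, Ehmt2, and up to 4 genes of each other list by lowest p; Gypc, Mpp1, Prtn3, Itga2b and the erythroid markers given were chosen after their values were seen. Alternatives were no block, MAS5, no filter or a filter at log2 6, array weights, quantile normalization, the mean over a gene's probe sets, and leaving out each replicate number, which in a blocked fit equals leaving out either of its arrays.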

Additional observations from a re-analysis of the deposited data

How the results depend on the processing

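No member probe set was called under any of the 9 alternative fits, and 7 of the 8 member genes had a positive difference in each, except for 6 in MAS5 and 8 without replicate 2. The median over the member genes was 0.20 to 0.34 when a replicate number was left out. Removing the block or changing the filter leaves the difference of a probe set unchanged. Those settings could therefore reverse no sign and move no gene count. Of 177 member values recomputed, with such settings included, 172 kept their sign and 5 reversed. Those were Tmod1 in MAS5 (−0.0080), and, on leaving out replicate numbers, Sptb at 1450556_at (−0.24 to 0.38), Ank1 at 1425677_a_at (−0.43 to 0.055) and at 1452512_a_at (−0.45 to 0.66), and Slc4a1 at 1416464_at (−0.51 to 0.30); the cause was not tested. The count of called probe sets over the whole array was 2 with the replicate number as a block, 1 with no replicate block, 0 in MAS5, 0 with no filter on dim probe sets, 8 with the stricter filter, 4 with array weights, and 0 to 1 when a replicate number was left out. With no replicate block no member call changed. Among member probe sets 2 had an unadjusted p under 0.05 without the block (limma), and 18 of 20 standard errors were smaller with it. The number of arrays limits the precision at every member probe set. The dim Ank1 probe set 1452512_a_at and the dimmer Dmtn probe sets were also close to the filter. The Ank1 probe sets 1419421_at and 1425677_a_at, which differed in sign, averaged 9.59 and 8.26 over the 6 arrays, above the filter. Their standard errors were 0.093 and 0.20, against 0.41 at 1452512_a_at. Why the Ank1 probe sets differed was not tested.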
